A study of Mus musculus with 2 samples.

Results

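The miR-101 genes of the mouse, Mir101a and Mir101b, were described in forebrain of B6NCrl embryos at day 14.5, where small RNA was sequenced in 2 libraries. They are the 2 genes of that name among the 1973 annotated miRNA genes of the deposited tables, taken by name and not by their values. The labels number the libraries biological replicates 1 and 2 and say that each came from the forebrain of 1 pup, taken on its own day. They also give the sex as pooled and the same donor identifier for both, so part of the difference between them could be technical. Both belong to 1 group with no treatment or second tissue, so no comparison between conditions was possible.

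A microRNA gene is transcribed into a hairpin that is cut into a product from its 5′ arm and one from its 3′ arm, and one of these guides the silencing of messenger RNAs that pair with its seed, bases 2 to 8. For miR-101 the guide is the 3′ product. miR-101 is best known for repressing Ezh2, the methyltransferase of Polycomb repressive complex 2, which keeps genes of later stages silent in neural progenitors. In mouse hippocampus, miR-101 is also known to restrain the chloride importer NKCC1 during postnatal development.

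The mature 3′ products, which carry the seed that defines the family, are shown with bases 2 to 8 in capitals. The last, from another annotated locus, Mir101c, is shown because it lies inside the first.
mmu-miR-101a-3p: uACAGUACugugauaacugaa
mmu-miR-101b-3p: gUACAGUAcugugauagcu
mmu-miR-101c: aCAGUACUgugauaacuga

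All sequences are those of RefSeq on GRCm38.p6, whose table matched both genes. The 3′ products of Mir101a and Mir101b are nearly the same molecule. Set against the 21 bases of miR-101a-3p, the Mir101b hairpin was identical at 20 and differed by the substitution A16G, counted from 1 at the 5′ end of miR-101a-3p. The annotated start of miR-101b-3p lies 1 base earlier. Its bases 2 to 8 are therefore UACAGUA where those of miR-101a-3p are ACAGUAC. A Mir101b product that starts at the same base as miR-101a-3p would have the seed ACAGUAC. The deposited gene counts do not show where reads start, so which start was used here cannot be read from them.

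The 5′ products, which pair with the 3′ products in the hairpin, have diverged further, and are shown with bases 2 to 8 in capitals to let the arms be compared.
mmu-miR-101a-5p: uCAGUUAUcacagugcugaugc
mmu-miR-101b-5p: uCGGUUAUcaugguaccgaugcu

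Over the 22 bases of miR-101a-5p, 17 were identical in Mir101b, and the substitutions were A3G, C11U, A12G, G15A and U17C, counted from the 5′ end of miR-101a-5p. The first of these lies within bases 2 to 8, so the 5′ seeds differ while the 3′ seeds are the same string shifted by the annotated start. Both precursors are shown whole, with the annotated mature products in capitals.
Mir101a hairpin: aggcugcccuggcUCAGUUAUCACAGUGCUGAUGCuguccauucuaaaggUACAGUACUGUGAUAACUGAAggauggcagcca
Mir101b hairpin: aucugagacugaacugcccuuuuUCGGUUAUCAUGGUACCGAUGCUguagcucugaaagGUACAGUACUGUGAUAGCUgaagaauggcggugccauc

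The hairpins are 83 and 97 bases long. In a global alignment of 99 columns, 69 were identical, 12 mismatched and 18 gapped.

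**Figure D1:**
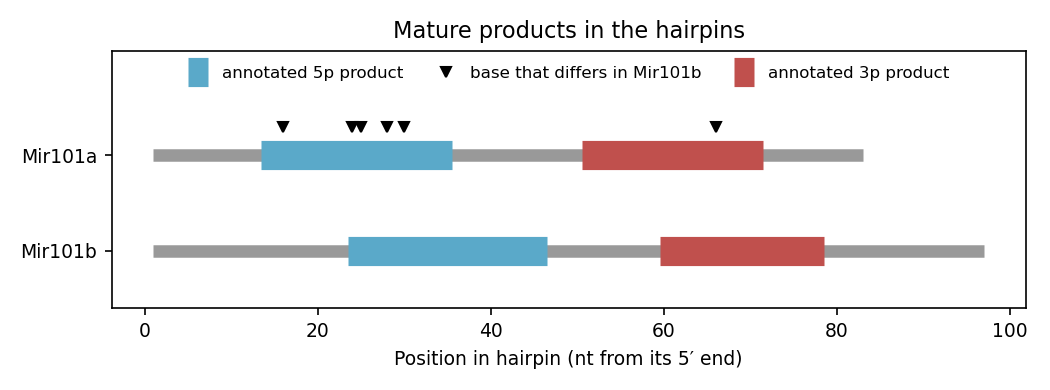
Position of the annotated 5p and 3p products in the hairpins of Mir101a and Mir101b, in nt from the 5′ end of each hairpin, with triangles at the bases of Mir101a products that differ in Mir101b. There are 5 differing bases in the 5p product and 1 in the 3p product.

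On mm10, Mir101a (ENSMUSG00000065451.1) lies at chr4:101346945-101347027 on the minus strand, in exon 2 of 2 of the long non-coding gene E130102H24Rik. Mir101b (ENSMUSG00000065556.1) lies at chr19:29135279-29135375 on the plus strand, in the intron between exons 8 and 9 of the 9 exons of Rcl1, a protein-coding gene of ribosome biogenesis. The loci have related surroundings. Mir101a lies between Jak1, 81663 bp away, and Ak4, 72250 bp away, and Mir101b lies between Ak3, 87318 bp away, and Jak2, 116453 bp away. The Jak genes encode Janus kinases and the Ak genes adenylate kinases. Neither locus had another annotated miRNA gene within 100 kb, so each is a solitary hairpin and not a member of a cluster.

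The libraries held 7080317 and 7946585 counts on the strand of a miRNA gene in replicates 1 and 2, so 1 count was worth 0.141 and 0.126 counts per 1000000 miRNA counts (CPM). Reads that matched several places, 43.3% and 42.2% of all reads, were assigned to no gene. Of the fixed neural markers in the tables, 9 of 10 had at least 10 counts in both libraries, with a summed level of 14889 and 13840 CPM, although the 3 loci of miR-124 had between 3 and 18 counts each. Among markers of other tissues the hepatocyte Mir122 stood at 10.3 and 10.2 CPM. Striated muscle markers summed to 24.0 and 16.5 CPM, with Mir1a-1, Mir133a-1 and Mir133a-2 at 0 counts. These come from miRNAs encoded at several loci, as do the miR-124 genes, and reads that match several loci are not counted, so a count of 0 sets no limit for them. Since these are bulk tissue samples, fewer cells of a type and less RNA per cell cannot be told apart.

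Both miR-101 genes were present in both libraries, and Mir101b carried most of the counts. Mir101a had 2352 counts in replicate 1 and 2774 in replicate 2, which is 332 and 349 CPM. The 95% exact Poisson intervals were 319 to 346 CPM and 336 to 362 CPM, so they overlapped. Mir101b had 8391 and 10616 counts, which is 1185 and 1336 CPM. Its intervals, 1160 to 1211 CPM and 1311 to 1362 CPM, did not overlap. The reads carry no molecular identifiers, so the intervals and limits given here reflect counting error alone. Mir101a averaged 341 ± 11.9 CPM and Mir101b 1261 ± 107 CPM (SD, n = 2 each), so that the lowest Mir101b value lay far above the highest Mir101a value.

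Together the genes held 1517 and 1685 CPM, or 1601 ± 119 CPM (SD, n = 2), in replicates 1 and 2. No count fell on the opposite strand of either gene in either library, which at a limit of 3 counts allows a level there of up to 0.424 CPM (replicate 1) or 0.378 CPM (replicate 2). All counts at these positions are thus on the strand of the hairpin.

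Among all genes, by CPM not divided by hairpin length, Mir101a held rank 125 in both libraries, and Mir101b rank 83 in replicate 1 and rank 77 in replicate 2. By mean CPM they were the 124th and 80th of the 399 detected genes, those with at least 10 counts in each library. The median detected gene stood at 81.0 CPM, below both. Mir101a had a higher CPM than 68.9% of the detected genes and Mir101b a higher CPM than 79.9%. These ranks are of counted reads. Since reads that match several places are left out, genes of miRNAs encoded at several loci can rank below their level.

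**Figure D2:**
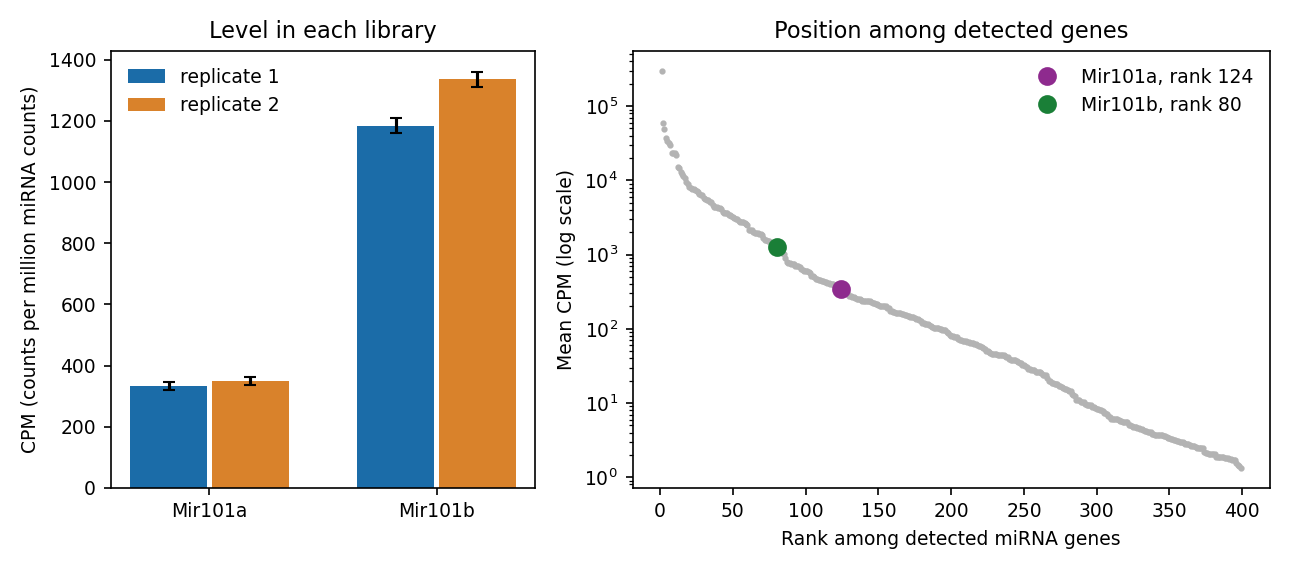
Left, CPM of Mir101a and Mir101b in each library, with bars for the value and whiskers for the 95% exact Poisson interval. Right, mean CPM on a log scale against rank for the 399 detected miRNA genes, with Mir101a at rank 124 and Mir101b at rank 80.

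Mir101a held about the same minor part of the pair's counts in both libraries. Mir101a made up 21.9% of the pair's counts in replicate 1, with a 95% exact (Clopper-Pearson) interval of 21.1% to 22.7%. In replicate 2 it made up 20.7%, with an interval of 20.0% to 21.4%. The intervals overlap narrowly. The ratio of Mir101a to Mir101b counts was 0.280 and 0.261, or a log2 ratio of -1.89 ± 0.07 (SD, n = 2). Per base of annotated hairpin, Mir101a had 28.3 and 33.4 counts, against 86.5 and 109 for Mir101b, a ratio of 0.328 and 0.305. By counted reads, Mir101a was the lower gene in both libraries on either scale. These counts do not separate the 5′ and 3′ products. Reads of Mir101a that also match Mir101c, described below, may be missing from them.

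Sequence limits what these counts can hold. The longest run of bases shared by the Mir101a and Mir101b hairpins was 20. A read of miR-101a-3p counted from its 5′ end was found in the Mir101b hairpin up to 15 bases and not at 16 or more, where A16G lies. Starting from the 5′ end of miR-101b-3p, the stretch found in the Mir101a hairpin was 16 of its 19 bases. Full-length products of each gene can therefore be told apart from those of the other by exact sequence.

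Mir101c differs in this respect. This gene model lies at chr9:3038669-3038743 on the minus strand in GENCODE M21 and has no row in the tables analysed here. Its annotated product of 19 bases is contained whole in miR-101a-3p, and the longest run shared with Mir101b was 14 bases. The longest run that the Mir101a and Mir101c hairpins shared was these 19 bases. Among annotated transcripts of GENCODE M21, the whole product of 21 bases occurred in those of Mir101a and its host E130102H24Rik and in no other gene. The shorter stretch occurred in Mir101a, E130102H24Rik and Mir101c. A read of the stretch alone matches both places and would be among the multi-mapping reads, which the Mir101a count leaves out. The alignment settings are not named in the sources, and how many reads of miR-101a-3p were lost in this way was not tested.

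Between the libraries Mir101b differed by more than counting error and Mir101a did not pass the test. Every gene's counts were set against the remaining miRNA counts in a Fisher's exact test (two-sided), with Benjamini-Hochberg adjustment over all 1973 genes. The test speaks of these libraries alone and takes in no error but that of counting. Mir101b had a ratio of replicate 1 to replicate 2 of 0.887, with a 95% exact interval of 0.862 to 0.913 (adjusted p = 4.50e-15). Mir101a had a ratio of 0.952, with an interval of 0.900 to 1.006 (adjusted p = 0.607). Of all genes tested 9.02% were called in either direction, and 3.19% were called as higher in replicate 2, the direction of Mir101b. With the adjustment made over the 399 detected genes 50.9% were called, so a call at these depths is common, and Mir101a still did not pass (adjusted p = 0.138).

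Scaling decides the call of Mir101a. With edgeR's TMM factors its log2 ratio of replicate 1 to replicate 2 was -0.15, against -0.07 with library totals, and passed the same Fisher's exact test (adjusted p = 0.00251). It also passed with DESeq2's median-of-ratios factors, at -0.18 (adjusted p = 0.000101), and with totals that leave out Mir99a, the most abundant gene, at -0.14 (adjusted p = 0.00635). These scalings moved the log2 ratios of all genes by -0.08, -0.11 and -0.07. Mir101b was called under each, at -0.25, -0.28 and -0.24. Both genes were lower in replicate 1 under all of these scalings.

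Among genes of like level, the difference of Mir101a was on the smaller side and that of Mir101b near the median. Of 63 detected genes within 2-fold of the mean CPM of Mir101a, 15 had a smaller absolute log2 ratio between the libraries, and the median was 0.22, against 0.07 for Mir101a. Of 37 such genes around Mir101b, 18 had a smaller one, with a median of 0.18, against 0.17 for Mir101b. Fisher's exact test called 44 of the 63 and 31 of the 37.

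**Figure D3:**
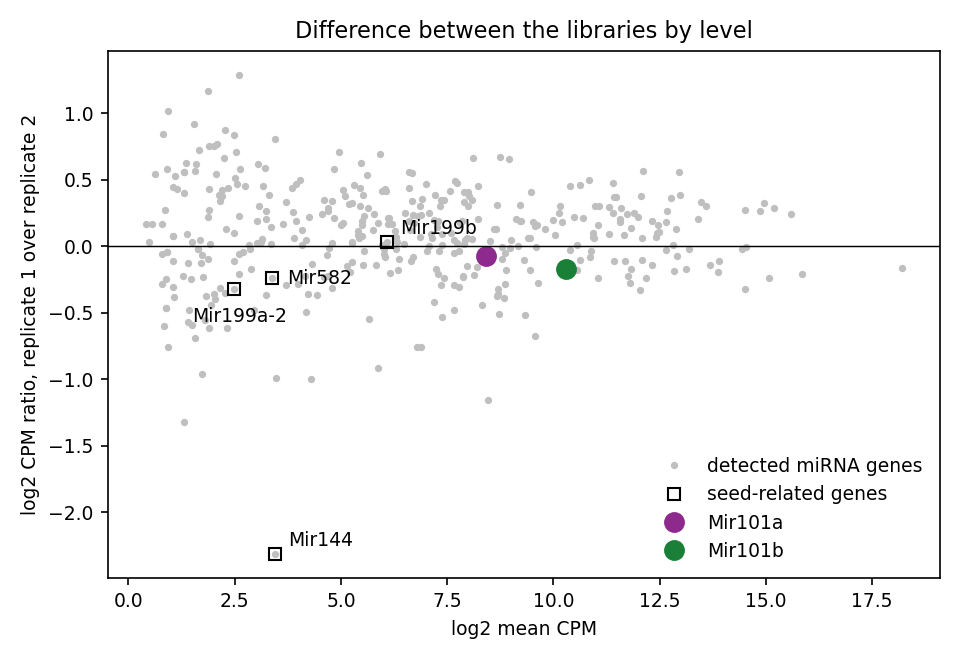
log2 ratio of CPM in replicate 1 over replicate 2 against log2 mean CPM for the 399 detected miRNA genes, with the miR-101 genes as filled circles and the other detected genes with a related seed as squares. Mir101a at -0.07 and Mir101b at -0.17 lie near 0, and Mir144 lies far below the other labelled genes at -2.31.

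Some markers of other cell types were called as higher in replicate 2, as Mir101b was. Calls are common here, with 43.9% of detected genes called in either direction. With library totals, 63 genes, 3.19% of all 1973 tested, were called as higher in replicate 2. Of the 178 calls in either direction, 175 fell among the 399 detected genes, so the share among detected genes is higher. Genes called as higher in replicate 2 numbered 79 with TMM factors and 90 with median-of-ratios factors. The 2 erythroid markers summed to 400.0 and 537 CPM in replicates 1 and 2, and both were called as higher in replicate 2. Epithelial markers summed to 1616 and 2147 CPM, with 6 of 7 genes called as higher in replicate 2. Smooth muscle and stromal markers summed to 3616 and 4036 CPM, of which Mir143 held 3400 and 3825 CPM. Mir143 was the only 1 of these 3 called, at a log2 ratio of replicate 1 to replicate 2 of -0.17, as for Mir101b. Mir145a and Mir214 went the other way, at 0.071 and 0.006, and were not called. None of the 3 immune markers in the tables was called by Fisher's exact test, at summed levels of 186 and 191 CPM. The endothelial Mir126a had 22103 and 22365 CPM and was called as higher in replicate 2, at a log2 ratio of -0.02 (adjusted p = 0.00701, Fisher's exact test). None of the markers of these cell types was at 0 counts, and their part in the Mir101b difference was not tested.

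The balance within the pair gives a comparison that no scaling can move. Mir101a to Mir101b was 0.10 log2 units higher in replicate 1 than in replicate 2, and Fisher's exact test (two-sided) on the pair's counts by library gave p = 0.0266. Adjusted by Benjamini-Hochberg over all 18 pairs of genes named MirNa and MirNb with 10 or more counts in both libraries, it just missed the threshold of 0.05 (adjusted p = 0.0533, Fisher's exact test). Over the 14 pairs with 100 or more counts it passed (adjusted p = 0.0414, Fisher's exact test). Of the 18 pairs, 44.4% were called. The change for miR-101 was smaller than that of 14 other pairs, larger than that of 3, and below the median change of 0.18 log2 units.

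In how unequal its genes were, miR-101 lay in the middle of these pairs. The a gene was higher in 10 pairs and the b gene in 8, in both libraries alike. Mir101b exceeded Mir101a by 3.57-fold in replicate 1 and 3.83-fold in replicate 2, and the median pair was 4.92-fold apart in either direction. With a summed level of 1601 CPM, miR-101 ranked 9th of the 18. The pairs nearest to it in log2 ratio of a to b were Mir216a and Mir216b at -1.46, Mir200a and Mir200b at -2.62, and Mir148a and Mir148b at -1.12. Farther off, Mir106a and Mir106b changed by 0.75 log2 units between the libraries, the largest change of the 18.

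**Figure D4:**
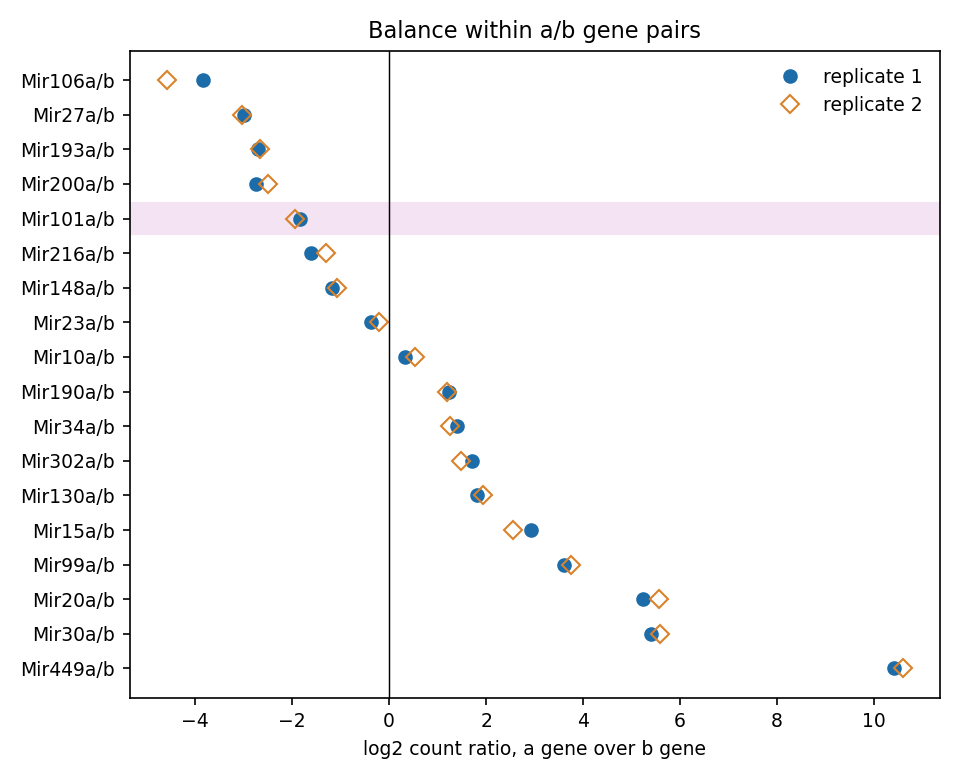
log2 ratio of the counts of the a gene over those of the b gene in replicates 1 and 2 for 18 pairs of miRNA genes that differ in name by the letter a or b, with the miR-101 pair shaded. Its values are -1.83 and -1.94, and 9 of the other pairs are more unequal.

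The host setting of each gene was set beside genes placed alike. Of 90 genes in an exon of a non-coding gene, as Mir101a is, 40 were detected, with a median of 147 CPM, and 15 of them were above Mir101a. Of 710 genes in an intron of a protein-coding gene, as Mir101b is, 168 were detected, with a median of 48.5 CPM, and 33 were above Mir101b. Both miR-101 genes thus lay above the median of their class. They also lay above the medians of the other placements. These were 30.9 CPM in exons of protein-coding genes, 239 CPM in introns of non-coding genes and 110 CPM outside other genes. The position above the median is therefore not particular to their host setting.

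By distance in log2(CPM + 1) over the 2 libraries, the genes most like Mir101a were Mirlet7c-1 of the let-7 family, at 326 and 353 CPM, Mir341 at 344 and 369 CPM, Mir27b at 370.0 and 360.3 CPM, and Mir543 at 279 and 311 CPM. Those most like Mir101b were Mir203, known from epithelia, at 1219 and 1369 CPM, Mir188 at 1332 and 1357 CPM, Mir15b at 1243 and 1098 CPM, and Mir434 at 1417 and 1608 CPM. With 2 libraries this likeness is mostly one of level, as far as counted reads give it. The 5′ product of let-7c is annotated with the same sequence at Mirlet7c-1 and Mirlet7c-2, so full reads of it are left out. The distance to the nearest was 0.03 for Mir101a and 0.05 for Mir101b.

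Of the other miRNAs with a related seed, Mir144 and Mir582 had far fewer counts than either miR-101 gene, and the miR-199 genes cannot be ranked by these counts. Among 1738 mature sequences in the RefSeq table, 8, from 8 genes, had bases 2 to 8 or 2 to 7 in common with a miR-101 3′ product or held ACAGUA within bases 1 to 8, and 7 of these genes were in the tables. The related products are shown with bases 2 to 8 in capitals.
mmu-miR-144-3p: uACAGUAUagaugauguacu
mmu-miR-582-5p: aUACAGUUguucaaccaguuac
mmu-miR-199a-3p: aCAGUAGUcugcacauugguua

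The product of Mir144, an erythroid miRNA, shares bases 2 to 7 with miR-101a-3p. Mir144 had 26 and 145 counts, or 3.67 and 18.2 CPM, in replicates 1 and 2, and passed Fisher's exact test (adjusted p = 4.36e-17). Mir582, whose 5′ product shares bases 2 to 7 with the annotated miR-101b-3p, had 68 and 90 counts, or 9.60 and 11.3 CPM (adjusted p = 1.00, Fisher's exact test). These values are low beside the 332 CPM that Mir101a had at its lowest. The 3′ product of the miR-199 genes holds ACAGUA from its first base and so has other letters at bases 2 to 7. Mir199b had 487 and 535 counts, or 68.8 and 67.3 CPM, Mir199a-2 had 35 and 49 counts, and Mir199a-1 had 3 and 0. The 3′ product printed for miR-199a is annotated with the same sequence at all 3 of these loci, Mir199b included. Full reads of it match more than 1 place and are left out, so these counts do not give its level.

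Genes of miRNAs reported in various systems to target Ezh2 formed a list of 30. The miR-101 genes are among them and enter the list's counts and medians. The tables hold 28 of them, of which 26 were detected, and Mir101a stood at the middle of them, the median being 340.1 CPM. The highest were Mirlet7g at 54325 and 62727 CPM, Mirlet7i at 53744 and 45496 CPM, and Mir26b at 12484 and 13768 CPM. Products of miR-26a, miR-138, let-7c, let-7f and miR-199a are each annotated with the same sequence at more than 1 locus, and miR-124 and let-7a also have several loci. Full reads that match more than 1 locus are left out, so positions within the list are those of counted reads and not of levels. By Fisher's exact test 10 of the 26 were called as higher in replicate 2, among them Mir101b, and 4 as higher in replicate 1. Over all genes the calls were 63 and 115 in these directions with library totals, a split that depended on the scaling. The list's median log2 ratio of replicate 1 to replicate 2 was -0.13, against 0.09 over all detected genes. Of the detected genes, 53.8% were called, near the 43.9% of all detected genes, so the number of calls says little about the list. Many of its genes belong to the let-7 family with miR-98 and share a seed, so they are not independent.

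Neuron-associated miRNAs, a list of genes known from neurons and their progenitors, were called in both directions. The tables hold 20 of the list, of which 19 were detected, and Fisher's exact test called 7 as higher in replicate 1 and 3 as higher in replicate 2. Those higher in replicate 2 were Mir128-1, Mir128-2 and Mir132. The 52.6% of detected genes called is again near the 43.9% of all detected genes. Over all genes, calls higher in replicate 1 also outnumbered the others with library totals, at 115 against 63. With median-of-ratios factors they did not, at 80 against 90. The highest of the list were Mir137 at 7955 and 7274 CPM, Mir7b at 2238 and 2002 CPM and Mir153 at 1773 and 1526 CPM, all higher in replicate 1 where Mir101b was lower. Products of miR-9, miR-128, miR-129, miR-138, miR-218 and miR-7a are each annotated with the same sequence at more than 1 locus, and miR-124 also has several loci. Full reads of these are left out, so this order is one of counted reads and not of levels. The list's median log2 ratio was 0.13, against 0.09 over all detected genes, and was 0.05 under TMM scaling, 0.02 under median-of-ratios scaling and 0.06 once Mir99a was taken out of the totals.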

How the data were processed

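The authors deposited, for each library, a table of raw read counts per miRNA gene. According to the READMEs deposited beside them, the counts were made from an alignment to mm10 with GENCODE annotation M4. The sources used here do not give the aligner, the counter or their settings. Own-strand counts were analysed, without the 4 totals that name no gene. Names and positions came from GENCODE M21 on the same assembly, by gene ID, for 1894 of the 1973 IDs. CPM is the count per 1000000 miRNA gene counts. The members, lists and tests were chosen with earlier results of these data known. Genes named are the members, their seed relatives, neighbours and hosts, the 4 nearest in level to each, the 3 highest of each list and the 3 nearest a/b pairs, with others chosen after their values were seen. Tests used scipy 1.17.1, scaling edgeR 4.0.16 and DESeq2 1.42.0, and alignment Biopython 1.88. Fisher's test was checked on simulated counts with counting error alone, so the check does not cover other differences between libraries. With 1 group, edgeR's quasi-likelihood test had no contrast to fit. Alternatives covered scaling, library total, counted strand, filters on low counts, pseudocount, hairpin length and each replicate left out.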

Additional observations from a re-analysis of the deposited data

How the results depend on the processing

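Leaving Mir99a out of the totals raised the levels to 488 CPM for Mir101a and 1807 CPM for Mir101b, since it shrinks the total, and all uniquely mapped reads as total gave 322 CPM for Mir101a. Without 1 replicate the levels were 332 to 349 CPM for Mir101a and 1185 to 1336 CPM for Mir101b, and the log2 ratio of Mir101a to Mir101b was -1.94 to -1.83. Per base of hairpin that ratio was -1.66. The difference in balance between the libraries, 0.10 log2 units, passed the test over pairs with 100 or more counts. Genes called between the libraries numbered 178, and 7 with at least a 2-fold difference. Library totals gave 115 calls higher in replicate 1 and 63 in replicate 2, against 88 and 79 with TMM, 80 and 90 with median-of-ratios factors and 91 and 77 without Mir99a. With the same scalings, added after seeing the data, the median log2 ratio of the Ezh2 list was -0.21, -0.24 and -0.20, against -0.13 with library totals, and genes higher in replicate 1 numbered 8 of 26 under each, against 11. That of the neuron-associated list was 0.05, 0.02 and 0.06, against 0.13, with 10 of 19 higher in replicate 1 under each, against 12. No paired analysis was possible because the libraries form 1 group. Counting error left the library ratio of Mir101a within 0.900 to 1.006 with library totals.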
